A study of Homo sapiens with 10 samples.

Results

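The proteasome subunit genes analysed here were the protein-coding genes whose symbol is PSM followed by a letter from A to G and a number. This rule, which used no measured value, found 48 of the 31015 genes that were counted. They were measured by SLAM-seq in 22RV1, a human prostate cancer cell line that came from a xenograft. In SLAM-seq, cells are given 4-thiouridine shortly before harvest, the label in new RNA is alkylated, and it is then read as a T>C conversion in sequenced 3′ ends. Reads with a conversion are called nascent RNA below, all reads are called total RNA, and the percent of reads with a conversion is called the labelled share. Each of the 5 groups held 2 libraries: control cells, cells given 20 μM SRPIN340 (an inhibitor of the splicing kinase SRPK1), cells given 50 μM Endovion (also known as SCO-101, studied here as an SRPK1 inhibitor), cells given THZ531 (a covalent inhibitor of the transcription kinases CDK12 and CDK13) and cells given THZ531 with Endovion. Treatment lasted 4 h, with 4-thiouridine in the last 10 min. The THZ531 dose was 100 nM in the methods and 150 nM in the description of the series. All groups share the 22RV1 background and the label. Nothing said whether the libraries of a group came from separate cultures, so p-values measure the spread between these libraries, which may be technical.

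The proteasome is the protease that degrades ubiquitin-tagged proteins in the cytosol and nucleus. Its 20S core is a barrel of outer alpha rings, which gate the entrance, and inner beta rings, where PSMB5, PSMB6 and PSMB7 carry the chymotrypsin-like, caspase-like and trypsin-like sites. The 19S cap binds, deubiquitinates and unfolds substrates with its ATPase ring (PSMC genes) and its other subunits (PSMD genes). PSME genes encode other activators, PSMF1 an inhibitor, and PSMG genes chaperones that help to build the core. When proteasome capacity falls, the transcription factor NFE2L1 is known to raise the subunit genes together.

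The libraries held between 19315398 and 30047663 reads on genes, of which 5.04 to 5.70% were labelled. The proteasome genes took 0.568 to 0.643% of all reads and 0.575 to 0.655% of labelled reads, and 5.07 to 5.86% of their own reads were labelled. HOXB13, FOXA1, EPCAM, KRT8, KRT18, KLK2, KLK3 and TMPRSS2, markers of prostate luminal epithelium, were all above 1 CPM (reads per 1000000, scaled between libraries) in each library, though TMPRSS2 stayed between 1.03 and 2.79. Of 6 markers of leukocytes, endothelium and stroma, COL1A1 alone reached 1 CPM in all libraries, PTPRC, CD3E, PECAM1 and COL1A2 were at 0 in both controls, and the summed level of the 6 lay between 1.97 and 3.73. In bulk RNA a change in the make-up of the culture and a change of RNA per cell cannot be told apart. All comparisons with control rest on the same pair of control libraries, which differed from each other for several of the genes below.

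A filter on low counts kept 44 of the 48 genes for total RNA and 42 for nascent RNA. PSMB8 and PSMB9, the interferon-inducible beta subunits of the immunoproteasome, were listed at 0 reads in each library. Of 73 protein-coding genes listed within 1000000 bases of PSMB8 on chromosome 6, itself included, 51 were listed at 0, and the highest had 11157 reads. Whether the 0 of PSMB8 and PSMB9 reflects their level was not tested, and no level is read from it. PSMA8 and PSMB11, which serve the testis and the thymus, had 2 reads each over all libraries together. PSMB3, a beta ring subunit that all proteasomes need, had 65 reads over all libraries. Of the 9 protein-coding genes listed within 100000 bases, itself included, 1 was listed at 0 and the highest had 301800 reads. Their median of 65.0 reads equals the count of PSMB3 itself, so PSMB3 stood in the middle of these genes by reads. PSMC1, a 19S ATPase, had 195 reads and overlaps NRDE2 on the opposite strand. PSMB3 and PSMC1 were tested in total RNA without a call, and no fold change of either is given. They do enter the medians and counts over the 44 genes.

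In control cells the other 42 genes spanned levels from 16 ± 1.71 CPM (SD, n = 2) for PSMD10 to 381 ± 35.2 for PSMD3, on a scale where a read stands for the 3′ end of a transcript and is not divided by length. PSMD10 encodes gankyrin, an assembly chaperone of the 19S base, and PSMD3 a scaffold subunit of the 19S lid. PSMA1 followed PSMD3 at 365 ± 10.9, PSMB7 at 351 ± 29.6, PSMD4, a ubiquitin receptor, at 335 ± 32.0 and PSMB5 at 320 ± 13.4, and each of these neighbours differed by less than the sum of its SDs. PSMB6 lay at 230 ± 17.8. PSMB10, the remaining immunoproteasome subunit and the counterpart of PSMB7, lay at 24.5 ± 2.42. Within the alpha ring, whose subunits the core holds in equal number, levels ran from 34.9 ± 11.1 for PSMA5 to the 365 of PSMA1. By role, the control median was 185 CPM over the 7 alpha ring genes, 230 over the 7 beta ring genes with PSMB3, 79.9 over the 6 ATPases with PSMC1, 115 over the 14 other 19S genes, 105 over the 4 activators and 74.9 over the 4 assembly chaperones. The inhibitor PSMF1 lay at 87.6 ± 2.23.

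**Figure D1:**
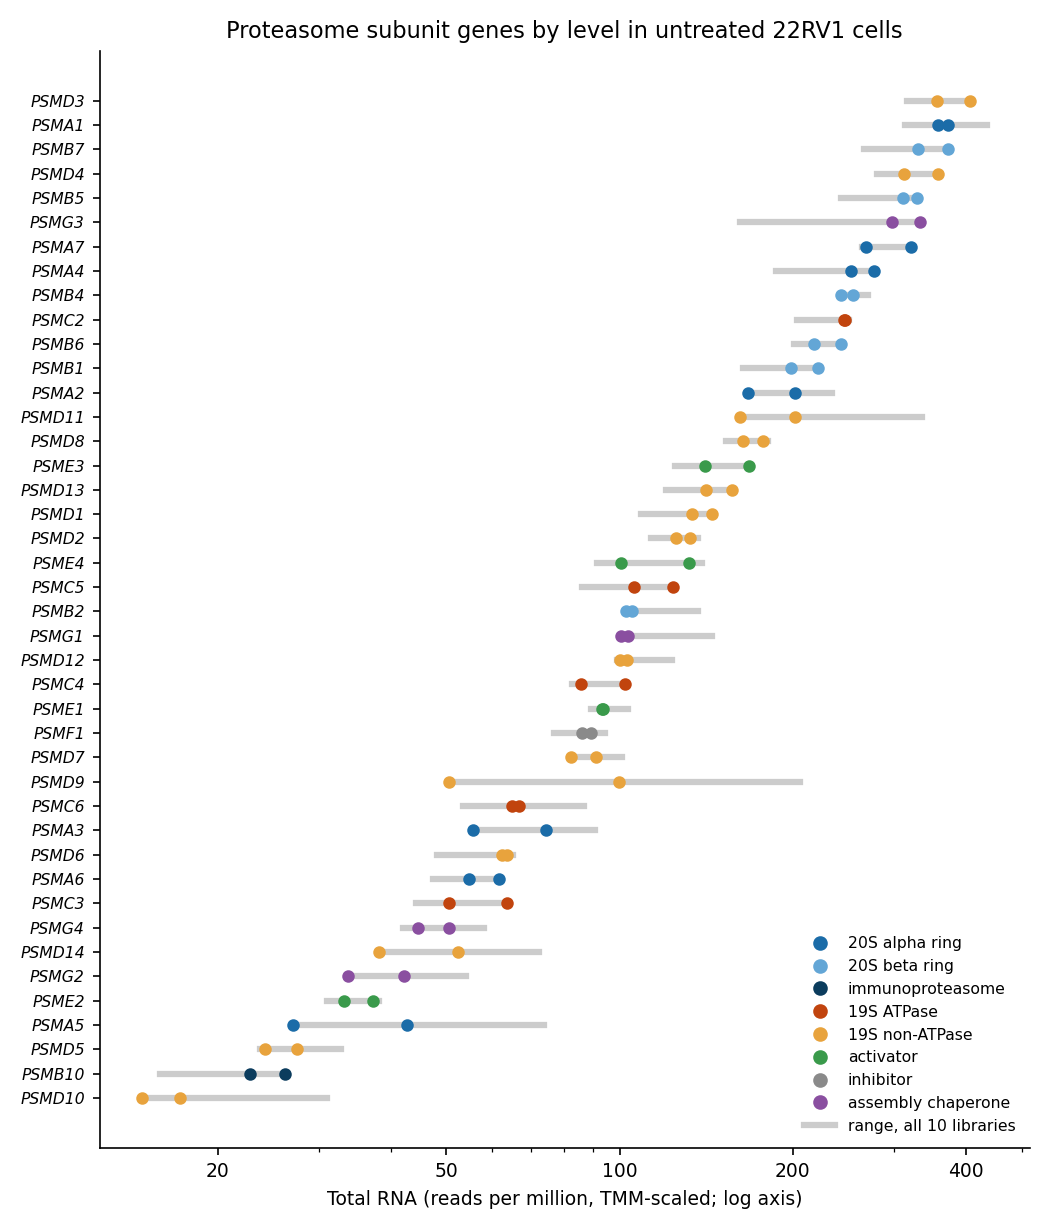
Total RNA of the 42 well-covered proteasome subunit genes, in TMM-scaled CPM on a log axis. Coloured points are the 2 control libraries, coloured by role, and grey bars span all 10 libraries. PSMD9, PSMD11, PSMA5, PSMD10 and PSMG3 have wide bars, and in each of these 5 genes the control points sit at 1 end.

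Of the 48 genes, 13 passed the test in at least 1 comparison, as described below. With overlap, they were 12 of the 44 tested in total RNA, 2 of the 42 tested in nascent RNA and 2 of these 42 in the labelled share. The share of all genes called in at least 1 comparison was not computed. In single comparisons the share of all genes called reached 30.7% in total RNA, 8.1% in nascent RNA and 1.02% in the labelled share. These are not the matching background, as the share called in at least 1 comparison can only be equal or larger. Promoter windows of RefSeq (GRCh38.p14, from 250 bases before to 50 after the transcript start) matched 42 of the 48 genes. The windows of PSMD11, PSMD14 and PSMD9, 19S genes whose total RNA rose, and the first window of PSMB5, a catalytic gene whose total RNA fell, are printed here 5′ to 3′ so that their regulatory letters can be set beside the values. Capitals mark matches on either strand to any of 5 motifs: TGACNNNGC, the core of the antioxidant response element that NFE2L1 and NFE2L2 bind; CCAAT, the NF-Y box; GGGCGG, the GC box; CCGGAAG, an ETS site; and AAGATGGC, a YY1 site. In these windows matches shared bases only where the PSMD14 window held CCAAT in both directions.
PSMD11, chr17:32444260-32444559, plus strand: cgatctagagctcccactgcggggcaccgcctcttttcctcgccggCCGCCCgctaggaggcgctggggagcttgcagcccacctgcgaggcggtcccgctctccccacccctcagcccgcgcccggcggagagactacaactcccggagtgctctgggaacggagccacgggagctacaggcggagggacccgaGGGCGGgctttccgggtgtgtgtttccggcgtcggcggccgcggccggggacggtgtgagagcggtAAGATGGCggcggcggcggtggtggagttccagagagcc
PSMD14, chr2:161308175-161308474, plus strand: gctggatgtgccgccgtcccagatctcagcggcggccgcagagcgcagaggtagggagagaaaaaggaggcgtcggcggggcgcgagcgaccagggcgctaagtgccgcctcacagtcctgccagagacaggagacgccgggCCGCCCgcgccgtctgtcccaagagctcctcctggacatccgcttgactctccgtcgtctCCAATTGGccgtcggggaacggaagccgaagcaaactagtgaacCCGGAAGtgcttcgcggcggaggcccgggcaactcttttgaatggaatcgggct
PSMD9, chr12:121888540-121888839, plus strand: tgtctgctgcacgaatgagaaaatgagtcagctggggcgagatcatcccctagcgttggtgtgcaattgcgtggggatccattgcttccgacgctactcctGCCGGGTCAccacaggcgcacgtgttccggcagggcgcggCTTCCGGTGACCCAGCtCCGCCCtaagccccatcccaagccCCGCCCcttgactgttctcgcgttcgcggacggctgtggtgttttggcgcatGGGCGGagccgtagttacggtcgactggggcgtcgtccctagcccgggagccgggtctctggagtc
PSMB5, chr14:23035171-23035470, minus strand: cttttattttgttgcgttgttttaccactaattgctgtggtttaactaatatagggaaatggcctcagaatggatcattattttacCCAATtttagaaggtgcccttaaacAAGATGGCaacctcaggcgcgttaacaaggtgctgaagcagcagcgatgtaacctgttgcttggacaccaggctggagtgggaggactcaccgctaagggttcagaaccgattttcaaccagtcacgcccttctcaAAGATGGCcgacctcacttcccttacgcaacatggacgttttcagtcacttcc
The PSMD9 window held the antioxidant core on each strand, the second of them adjoining an ETS site, and 3 GC boxes. The PSMD11 window held GC boxes in both directions and, just after the transcript start, a YY1 match, and the PSMB5 window held a CCAAT box and 2 YY1 matches. A gene was counted for a motif if any of its windows held it. The antioxidant core was found in 15 of the 42 genes (35.7%) against 17.9% of the 15842 protein-coding genes with a window, the ETS site in 15 (35.7%) against 16.5%, the YY1 site in 5 (11.9%) against 4.66%, the CCAAT box in 20 (47.6%) against 42.1% and the GC box in 29 (69.0%) against 64.3%. The antioxidant core was in 3 of the 8 genes whose total RNA rose (PSMD9, PSMG1 and PSMG2), in 1 of the 3 with a window that fell (PSMC5) and in 10 of the 27 other tested genes with a window. These counts describe letters in a window, and binding was not measured.

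The first question was whether CDK12/13 inhibition changed the steady-state transcripts of the proteasome. Under THZ531, total RNA rose for 7 of the 44 tested genes and fell for 2, which is 20.5%, beside 30.7% of all 14689 genes tested (edgeR quasi-likelihood test, Benjamini-Hochberg adjusted p under 0.05). The genes that rose encode the alpha subunit PSMA5, the beta subunit PSMB2, the 19S subunits PSMD9, PSMD10, PSMD11 and PSMD14, and the core assembly chaperone PSMG1. PSMB5 and PSMG3 fell. The median log2 fold change was 0.07 over the 44 genes and -0.01 over all genes, and 27 of the 44 lay above 0, against 49.6% of all genes.

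PSMD11, a lid subunit that helps to join core and cap, was at 202 and 162 CPM in the control libraries, 282 and 336 under THZ531, 328 and 311 under THZ531 with Endovion, 275 and 264 under Endovion, and 232 and 263 under SRPIN340. All 8 treated libraries lay above both controls. Its log2 fold change was 0.76 ± 0.13 (SE, n = 2 libraries a group) under THZ531, with an edgeR adjusted p of 0.000432. PSMD14, the deubiquitinase of the lid, was at 52.4 and 38.2 in control libraries and 61.8 and 70.1 under THZ531, with a log2 fold change of 0.54 ± 0.15 and an edgeR adjusted p of 0.0144. PSMD10 was at 17.2 and 14.8 in control libraries and 21.9 and 31.0 under THZ531 (0.72 ± 0.19, edgeR adjusted p = 0.00975). For both genes no THZ531 library overlapped the controls.

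PSMD9, an assembly chaperone of the 19S base, showed the largest rise of the genes called under THZ531. It was at 99.7 and 50.6 CPM in control libraries, which is close to a 2-fold difference between replicates, and at 151 and 206 under THZ531 (1.25 ± 0.30, edgeR adjusted p = 0.0182). PSMA5 also varied between controls, at 42.7 and 27.0, and lay at 53.3 and 74.0 under THZ531 (0.86 ± 0.25, edgeR adjusted p = 0.0255). PSMB2, a beta ring subunit, moved less but with tight replicates, from 105 and 103 to 128 and 137 (0.35 ± 0.11, edgeR adjusted p = 0.0218). PSMG1, which pairs with PSMG2 to assemble alpha rings, went from 104 and 101 to 145 and 137 (0.46 ± 0.11, edgeR adjusted p = 0.0065).

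PSMG3, a chaperone that pairs with PSMG4, fell from 298 and 332 CPM in control libraries to 227 and 197 under THZ531 (log2 fold change -0.57 ± 0.12, edgeR adjusted p = 0.00239). PSMB5, the target of the drug bortezomib, was at 329 and 310 in control libraries and 275 and 243 under THZ531 (-0.30 ± 0.11, edgeR adjusted p = 0.0416). The other catalytic genes were not called, with log2 fold changes of -0.01 ± 0.10 for PSMB6 and -0.09 ± 0.12 for PSMB7, and PSMB10 was at -0.29 ± 0.17. None of the 4 activators or PSMF1 was called under THZ531, and their values ran from -0.10 ± 0.14 for PSME2 to 0.26 ± 0.13 for PSME4.

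The calls for PSMD11 and PSMG3 under THZ531 held under all 16 alternative settings. Settings that leave out a library of another group keep the compared counts and act through the shared fit. In an edgeR fit of only the compared groups, PSMB2 (adjusted p = 0.0989), PSMB5 (0.0788), PSMD14 (0.0626) and PSMD9 (0.105) lost their calls. Without control replicate 2 the calls of PSMA5 (0.53, adjusted p = 0.132), PSMB2 (0.30, 0.124), PSMD10 (0.58, 0.0938), PSMD14 (0.29, 0.215) and PSMG1 (0.40, 0.0502) were lost, and without THZ531 replicate 2 those of PSMA5 (0.56, 0.187), PSMB2 (0.25, 0.232), PSMB5 (-0.27, 0.191), PSMD10 (0.40, 0.212), PSMD14 (0.39, 0.156) and PSMD9 (0.95, 0.116), each with edgeR's log2 fold change and adjusted p in parentheses. Without THZ531 replicate 1 the calls of PSMB2 (0.35, 0.0573) and PSMG1 (0.37, 0.0536) were lost, without control replicate 1 that of PSMB5 (-0.26, 0.140), and without THZ531_Endovion replicate 1, a library that enters through the shared spread, those of PSMA5 (0.82, 0.0508) and PSMB2 (0.30, 0.0589). The PSMB5 call was also lost without either SRPIN340 library (adjusted p = 0.0728 and 0.0724) and without Endovion replicate 1 (0.0503).

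Under THZ531 with Endovion, total RNA rose for 6 of the 44 genes and fell for 3, again 20.5%, beside 29.0% of all genes tested. The 6 that rose were PSMA5, PSMB2, PSMD9, PSMD10, PSMD11 and PSMD14, all of which had also risen under THZ531 in the comparison that shares these controls. PSMD11 had the strongest evidence of a rise, with a log2 fold change of 0.81 ± 0.13 and an edgeR adjusted p of 0.000303. PSMD14 was at 72.5 and 71.7 CPM (0.67 ± 0.15, edgeR adjusted p = 0.0045), PSMD10 at 27.8 and 28.6 (0.82 ± 0.19, edgeR adjusted p = 0.0051) and PSMD9 at 162 and 165 (1.12 ± 0.30, edgeR adjusted p = 0.0284). The median over the 44 genes was 0.05. In PSMD14, PSMD10 and PSMD9 both treated libraries lay above both controls. PSMA5, at 59.7 and 70.4, rose by 0.90 ± 0.25 (edgeR adjusted p = 0.0229), and PSMB2, at 131 and 134, by 0.35 ± 0.11 (edgeR adjusted p = 0.0255).

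PSMG3 fell most, to 162 and 187 CPM, with a log2 fold change of -0.85 ± 0.12 and an edgeR adjusted p of 0.000158. PSMB10 fell from 22.7 and 26.2 to 16 and 16.8 (-0.57 ± 0.17, edgeR adjusted p = 0.0170), and the ATPase PSMC5 from 106 and 124 to 86.9 and 94.3 (-0.34 ± 0.12, edgeR adjusted p = 0.0378). PSMB5 was not called here, at 293 and 257 (-0.22 ± 0.11, edgeR adjusted p = 0.136). In an edgeR fit of only the compared groups, PSMB2 (adjusted p = 0.0986), PSMC5 (0.0585) and PSMD9 (0.0650) lost their calls. The PSMB2 call was also lost with plain sums of intervals (edgeR adjusted p = 0.0523) and without the filter (0.0567). PSMD11 and PSMG3 held their calls under all 16 alternatives, and PSMD14 and PSMD10 lost theirs only without control replicate 2 (0.42, adjusted p = 0.0852, and 0.67, adjusted p = 0.0625). Without that library, PSMA5 was at an adjusted p of 0.125, PSMB10 at 0.0893, PSMB2 at 0.152 and PSMC5 at 0.172. Without THZ531_Endovion replicate 1, PSMA5 was at 0.0749, PSMB10 at 0.0679, PSMB2 at 0.147, PSMC5 at 0.130 and PSMD9 at 0.133, and without replicate 2 they were at 0.142, 0.0579, 0.108, 0.0774 and 0.123. PSMB2, PSMC5 and PSMD9 also lost their calls without single libraries of other treatments, at adjusted p between 0.0506 and 0.0674.

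**Figure D2:**
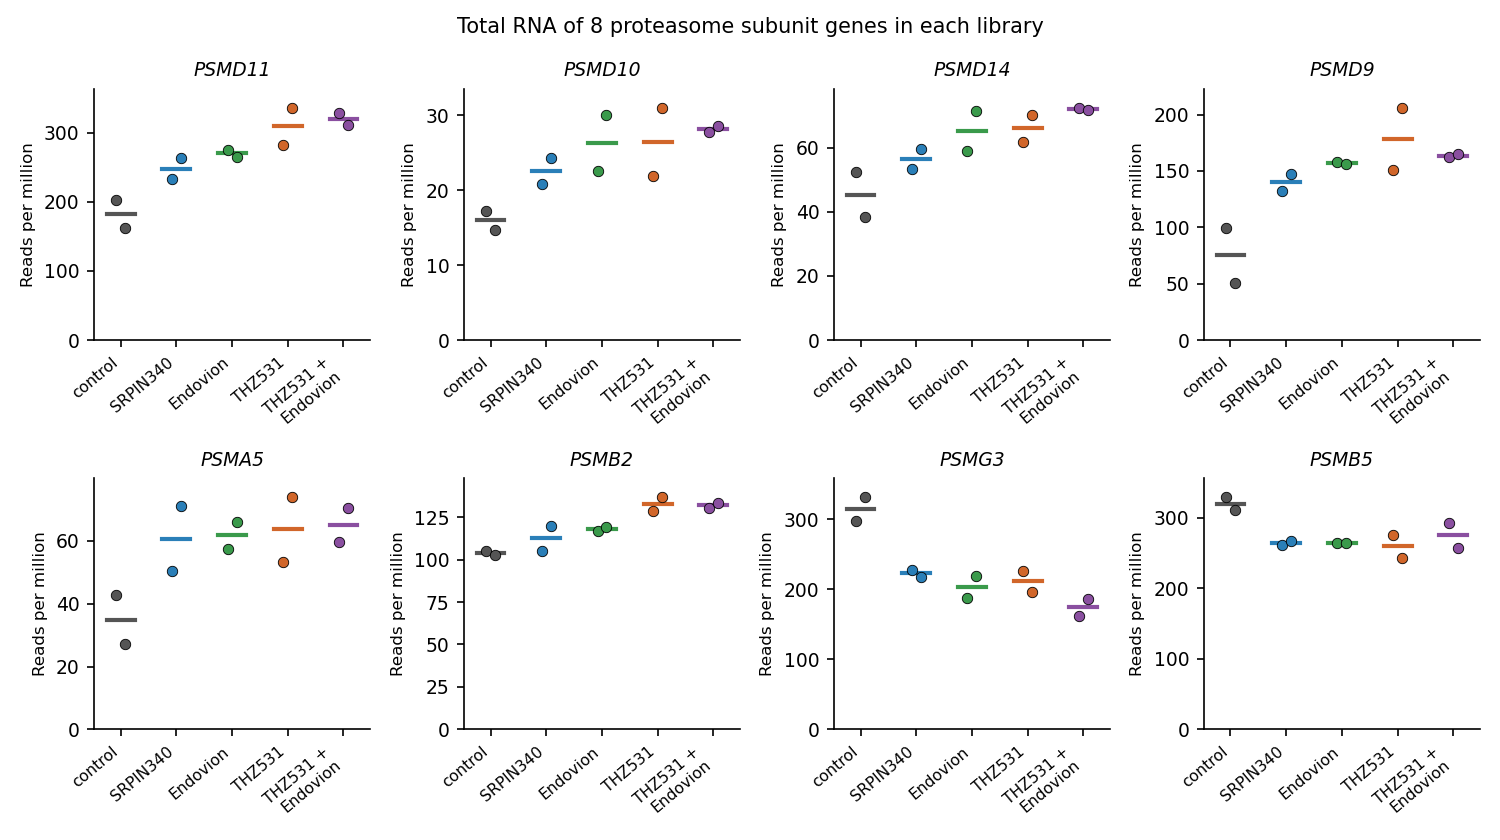
Total RNA of 8 proteasome subunit genes, in TMM-scaled CPM. Points are libraries, bars are group means (n = 2), and the axes start at 0; PSMD11, PSMD10, PSMD14, PSMD9 and PSMA5 lie higher and PSMG3 and PSMB5 lower in each of the 8 treated libraries than in both controls, while a SRPIN340 library of PSMB2 falls level with a control.

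Endovion alone was called for fewer genes. Total RNA rose for PSMD10, PSMD11, PSMD14 and PSMG2 and fell for PSMG3, 5 of 44 genes or 11.4%, which was also the share of all genes tested (11.4%). PSMD11 rose by 0.57 ± 0.13 on the log2 scale (edgeR adjusted p = 0.0107) and PSMD14, at 59.0 and 71.4 CPM, by 0.52 ± 0.15 (edgeR adjusted p = 0.0378). PSMD10 was at 22.5 and 30.1 (0.72 ± 0.19, edgeR adjusted p = 0.0250). PSMG2 was at 42.2 and 33.7 in control libraries and 54.1 and 53.5 under Endovion (0.50 ± 0.13, edgeR adjusted p = 0.0264). PSMG3 was at 187 and 219 (-0.63 ± 0.12, edgeR adjusted p = 0.0055). PSMD9, at 158 and 157 (1.06 ± 0.30, edgeR adjusted p = 0.063), PSMA5 (0.82 ± 0.25, 0.062) and PSMB10 (-0.52 ± 0.17, 0.051) just missed the threshold. Without control replicate 2 only PSMG3 kept its call, and PSMD10 (0.56, adjusted p = 0.239), PSMD11 (0.37, 0.190), PSMD14 (0.27, 0.420) and PSMG2 (0.30, 0.337) lost theirs. Without Endovion replicate 1 the adjusted p was 0.0651 for PSMG3, 0.0703 for PSMD11, 0.0678 for PSMD14 and 0.131 for PSMG2, and without Endovion replicate 2 it was 0.231 for PSMD10, 0.267 for PSMD14 and 0.117 for PSMG2. Without THZ531_Endovion replicate 1 it was 0.0682 for PSMD14 and 0.0532 for PSMG2, and without replicate 2 it was 0.0506 for PSMD14.

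SRPIN340 gave a call for PSMG3 alone, 1 of 44 genes or 2.27%, beside 1.96% of all genes. PSMG3 was at 228 and 218 CPM, with a log2 fold change of -0.50 ± 0.12 and an edgeR adjusted p of 0.0448. That call was lost without control replicate 2 (-0.46, adjusted p = 0.318) and without either SRPIN340 library (adjusted p = 0.121 and 0.394), and without either Endovion library or THZ531_Endovion replicate 2 (0.0619, 0.0607 and 0.0577). The uncalled values of PSMD11 (0.45 ± 0.13), PSMD9 (0.89 ± 0.29), PSMA5 (0.80 ± 0.25) and PSMD10 (0.50 ± 0.19) had the sign seen under the other treatments. All 8 treated libraries lay above both controls for 7 of the 44 genes, beside 15.1% of all genes tested, and below both for 5, beside 8.69%. Not yet named as such were PSMG1 and the barely covered PSMC1 above, and PSMB10, PSMC5 and PSMD1 below. The median over the 44 genes was -0.05 under SRPIN340 and -0.10 under Endovion, beside 0.03 and 0.02 over all genes.

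Adding Endovion to THZ531, or THZ531 to Endovion, gave no total RNA call among the 44 genes by edgeR or DESeq2. In the first comparison 1 of them and in the second 4 had an unadjusted edgeR p under 0.05, beside 11% and 21.1% of all genes. After adjustment 0.511% and 8.21% of all genes were called. PSMG3 was lower with both drugs than with THZ531 by -0.28 ± 0.12 on the log2 scale (edgeR adjusted p = 0.395). PSMD11 differed by 0.05 ± 0.12 from THZ531 alone (edgeR adjusted p = 0.944).

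**Figure D3:**
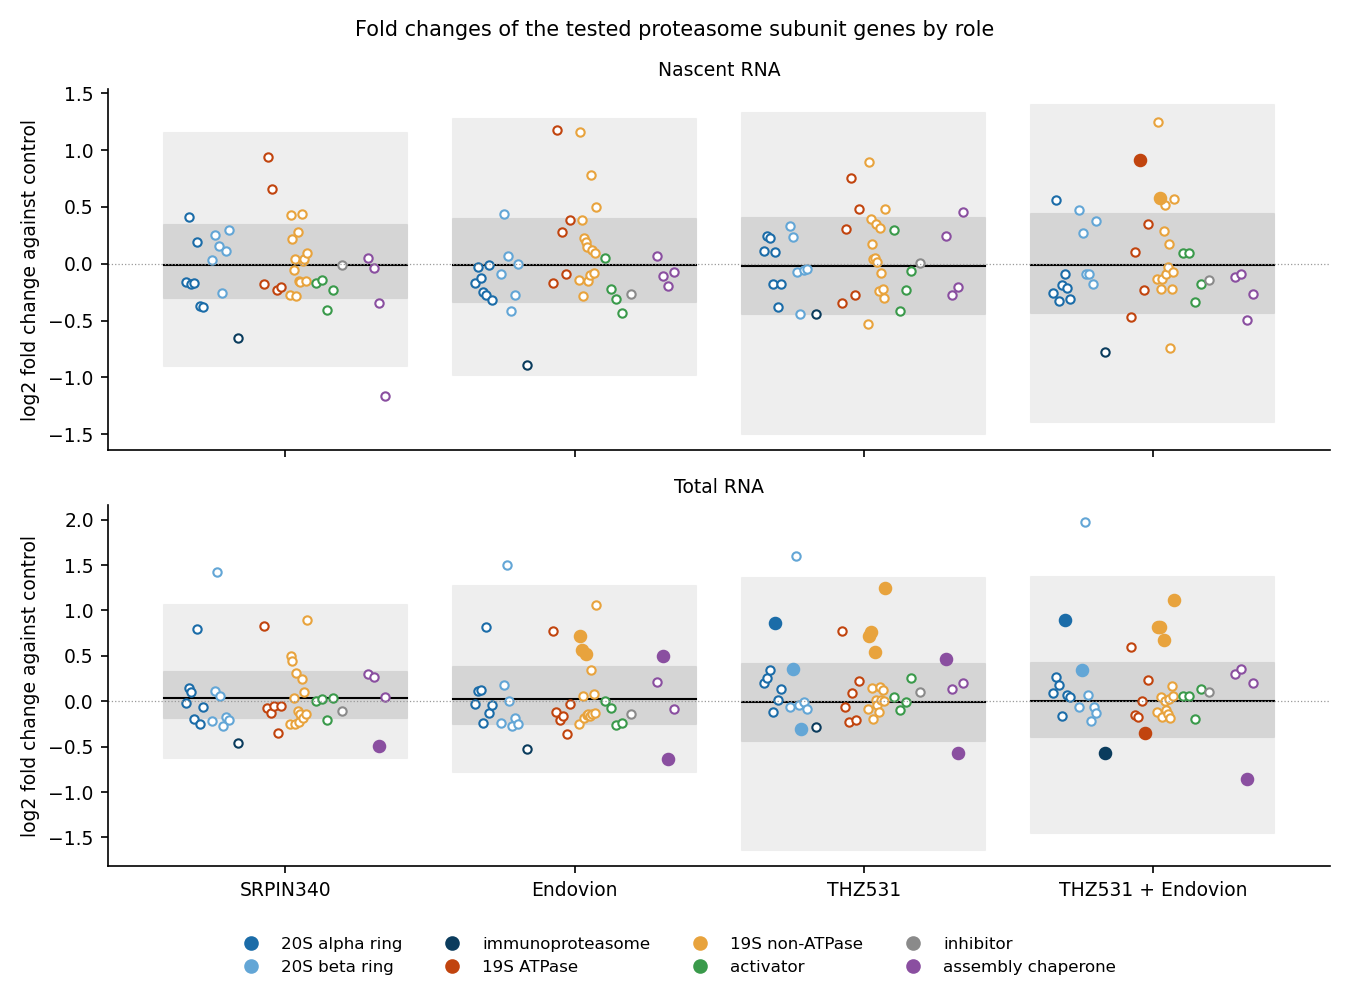
Log2 fold changes against control of the tested proteasome subunit genes by treatment, nascent RNA above and total RNA below. Points are genes coloured by role, filled where the edgeR adjusted p was under 0.05, grey boxes span the middle 50 and 90 percent of all genes tested and black lines are their medians. Filled points number 2 in nascent RNA and 1, 5, 9 and 9 in total RNA. The highest open points in total RNA are PSMB3, which had almost no reads.

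The second question was whether reads with a conversion, taken as RNA made in the last 10 min, changed. Every library was labelled, so the part of these reads that arises without the label was not measured. In nascent RNA, none of the 42 tested genes was called under SRPIN340, Endovion or THZ531 by edgeR or DESeq2, where 1.04%, 2.66% and 7.46% of the 9946 genes tested were called by edgeR. At an unadjusted edgeR p under 0.05 there were 4 of the 42 genes under SRPIN340 (9.52%), 7 under Endovion (16.7%) and 4 under THZ531 (9.52%), beside 10.4%, 14.1% and 21.2% of all genes. Under THZ531 with Endovion, 2 genes rose and none fell, 4.76% beside 8.1% of all genes, and 9 of 42 (21.4%) had an unadjusted p under 0.05 beside 21.4% of all genes. The median log2 fold change over the 42 genes was -0.10 under SRPIN340, -0.09 under Endovion, 0.01 under THZ531 and -0.09 under THZ531 with Endovion, beside values between -0.02 and -0.01 over all genes.

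PSMC4, a 19S ATPase, was at 30.9 and 50.6 T>C CPM in control libraries and at 87.3 and 64.9 under THZ531 with Endovion, a log2 fold change of 0.92 ± 0.31 with an edgeR adjusted p of 0.0488. Its nascent values were higher than both controls under SRPIN340 (62.2 and 65.1) and THZ531 (74.2 and 61.0) as well, uncalled at 0.66 ± 0.30 and 0.75 ± 0.31, and overlapped them under Endovion (54.5 and 43.3). Total RNA of PSMC4 stayed between 82.7 and 102 CPM in all libraries. PSMD11 was at 294 and 194 T>C CPM in control libraries and at 411 and 323 under both drugs (0.58 ± 0.18, edgeR adjusted p = 0.0301), the gene that also rose in total RNA. By DESeq2 neither was called (adjusted p = 0.0858 and 0.0837). The PSMC4 call was lost in 14 of 17 alternatives, down to 0.60 (adjusted p = 0.341) without control replicate 1 and 0.68 (0.392) without THZ531_Endovion replicate 1, and that of PSMD11 in 6, among them without control replicate 2 (0.32, 0.450) and without THZ531_Endovion replicate 1 (0.39, 0.394).

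Other nascent values at the ends of the range were not called. PSMD10 was highest under THZ531 (0.90 ± 0.59) and under both drugs (1.24 ± 0.58) and second under Endovion (1.16 ± 0.58), on 8.02 to 25.6 T>C CPM. PSMC3, an ATPase with as few as 8 T>C reads in a control library, was highest under Endovion (1.18 ± 0.63) and SRPIN340 (0.94 ± 0.62). The next-highest values were those of PSMD5, a 19S assembly chaperone, under the same drugs (0.78 ± 0.36 and 0.44 ± 0.35) and of PSMC6, an ATPase, under THZ531 (0.48 ± 0.24). The lowest value was that of PSMG4 under SRPIN340, at 37.3 and 28.1 T>C CPM in controls and 14.9 and 14.4 under the drug (-1.16 ± 0.40, edgeR adjusted p = 0.191).

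PSMB10 lay at 71.4 and 108 T>C CPM in control libraries and was lowest or second lowest under each treatment, at -0.65 ± 0.30 under SRPIN340, -0.89 ± 0.31 under Endovion, -0.44 ± 0.30 under THZ531 and -0.78 ± 0.31 under both drugs. PSMB5 was at 198 and 185 in control libraries and 142 and 141 under THZ531 (-0.44 ± 0.20, edgeR adjusted p = 0.181), and at -0.41 ± 0.20 under Endovion. The remaining lowest values were PSME3 under SRPIN340 (-0.41 ± 0.21), PSME4 under Endovion (-0.43 ± 0.22), PSMD1 under THZ531 (-0.53 ± 0.29), and PSMD6 and PSMG3 under both drugs (-0.74 ± 0.46 and -0.50 ± 0.22).

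Nascent RNA gave no call between THZ531 with Endovion and either drug alone, nor for the interaction of the drugs, by edgeR or DESeq2. By edgeR, unadjusted p under 0.05 was reached by 2 of 42 genes against THZ531, 3 against Endovion and 1 in the interaction (4.76%, 7.14% and 2.38%), beside 7.8%, 10.9% and 7.7% of all genes. After adjustment 0.322%, 1.31% and 0.302% of all genes were called. Against THZ531 the values ran from -0.72 ± 0.39 for PSMG4, -0.65 ± 0.46 for PSMD6 and -0.55 ± 0.22 for PSMA3 to 0.40 ± 0.30 for PSMD1, 0.43 ± 0.23 for PSMB7 and 0.51 ± 0.70 for PSME2. Against Endovion they ran from -1.07 ± 0.64 for PSMC3, -0.86 ± 0.46 for PSMD6 and -0.61 ± 0.36 for PSMD5 to 0.56 ± 0.26 for PSMB1, 0.59 ± 0.23 for PSMA2 and 0.64 ± 0.30 for PSMC4.

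The study's own threshold, an unadjusted p under 0.05 and a change to at least 2-fold either way, named few of these genes when applied to the edgeR fits. In nascent RNA it named PSMG4 under SRPIN340, PSMD10 under Endovion, no gene under THZ531 and PSMD10 under both drugs, where it named 4.66%, 6.49%, 12% and 11.3% of all genes. In total RNA it named no gene under SRPIN340 and PSMD9 under Endovion, THZ531 and both drugs, where it named 4.21%, 6.88%, 14.8% and 13.9% of all genes.

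**Figure D4:**
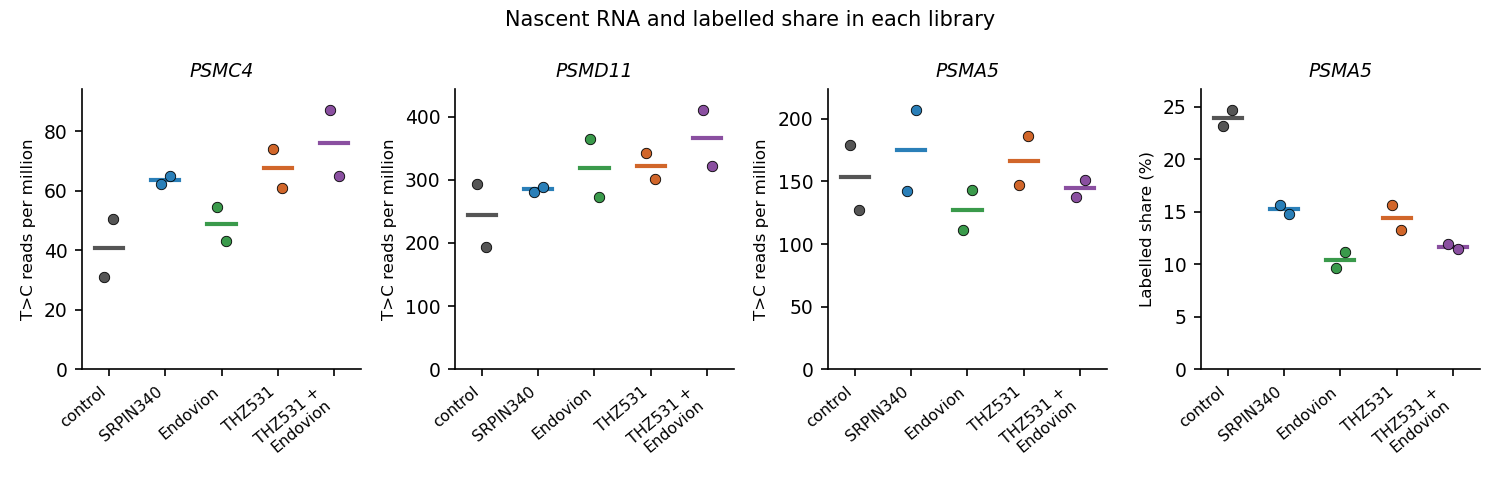
Nascent RNA of PSMC4, PSMD11 and PSMA5, in TMM-scaled T>C CPM, and the labelled share of PSMA5 in percent. Points are libraries, bars are group means (n = 2), and axes start at 0. Nascent PSMA5 overlaps between groups, whereas its labelled share is 23.2 and 24.7% in control and 9.67 to 15.7% in treated libraries.

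The labelled share compares reads with a conversion, taken as new RNA, with all reads of the same gene. In control cells it was 3.88% at the median of the 42 genes and 5.27% at the median of 8683 genes with 100 or more T>C reads. It ranged from 0.777 ± 0.30% (SD, n = 2) for PSMC3 to 24 ± 1.09% for PSMA5, followed by PSMA4 (21.8 ± 1.86%), PSMB10 (19.5 ± 2.93%), PSMG2 (13.7 ± 0.89%) and PSMC2 (12.9 ± 0.98%). PSMA4 had few counted conversions per T>C read, as given below. Shares above 10% were found for 8 of the 42 genes, beside 17.4% of the 8683 genes. The 7 alpha ring genes ran from 2.88% for PSMA2 and 4.06% for PSMA6 up to PSMA5, and the 6 tested beta ring genes from 1.72% for PSMB7 to 5.78% for PSMB2, so the ranges of the rings overlapped. Across the 42 genes the share rose with the number of T positions in the main interval (Pearson's r = 0.41 on log2 scales, Spearman's rho = 0.52), a description across genes that share the same libraries.

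Under Endovion the share was called for PSMA5 alone, 1 of 42 genes or 2.38%, beside 0.442% of all genes. PSMA5 was labelled in 9.67 and 11.2% of reads, a log2 change of -1.27 ± 0.21 relative to the library (edgeR adjusted p = 0.0016). Its total RNA was higher in these libraries, and its nascent RNA, at 111 and 143 T>C CPM beside 179 and 128 in controls, overlapped. Under THZ531 with Endovion PSMA5 fell to 11.9 and 11.4% (-1.10 ± 0.21, edgeR adjusted p = 0.0043) and PSMC4 rose from 2.0 and 2.60% to 4.85 and 3.61% (1.06 ± 0.27, edgeR adjusted p = 0.0399), 2 of 42 genes or 4.76% beside 1.02% of all genes.

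PSMA5 was not called under SRPIN340 (15.7 and 14.8%, -0.72 ± 0.21, edgeR adjusted p = 0.216) or THZ531 (15.6 and 13.3%, -0.81 ± 0.21, edgeR adjusted p = 0.0802), and no other gene was. In these comparisons 10 and 5 of the 42 genes (23.8% and 11.9%) had an unadjusted p under 0.05, beside 8.14% and 10.1% of all genes, and 0.181% and 0.342% of all genes were called after adjustment. Under Endovion 7 of the 42 genes (16.7%) and under both drugs 11 (26.2%) had an unadjusted p under 0.05, beside 9.32% and 12.1% of all genes. Between both drugs and either drug alone no gene of the 9946 was called (0.0% each), and 3 and 4 of the 42 (7.14% and 9.52%) had an unadjusted p under 0.05, beside 4.98% and 5.11% of all genes. DESeq2 was not run on the share. The PSMA5 call under Endovion was lost without Endovion replicate 1 (-1.17, adjusted p = 0.148), that under both drugs without control replicate 2 (-1.03, 0.0514) or either treated library (0.0539 and 0.0912), and the PSMC4 call in 12 of 14 alternatives, including without control replicate 1 (0.84, 0.210) and THZ531_Endovion replicate 1 (0.79, 0.479).

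**Figure D5:**
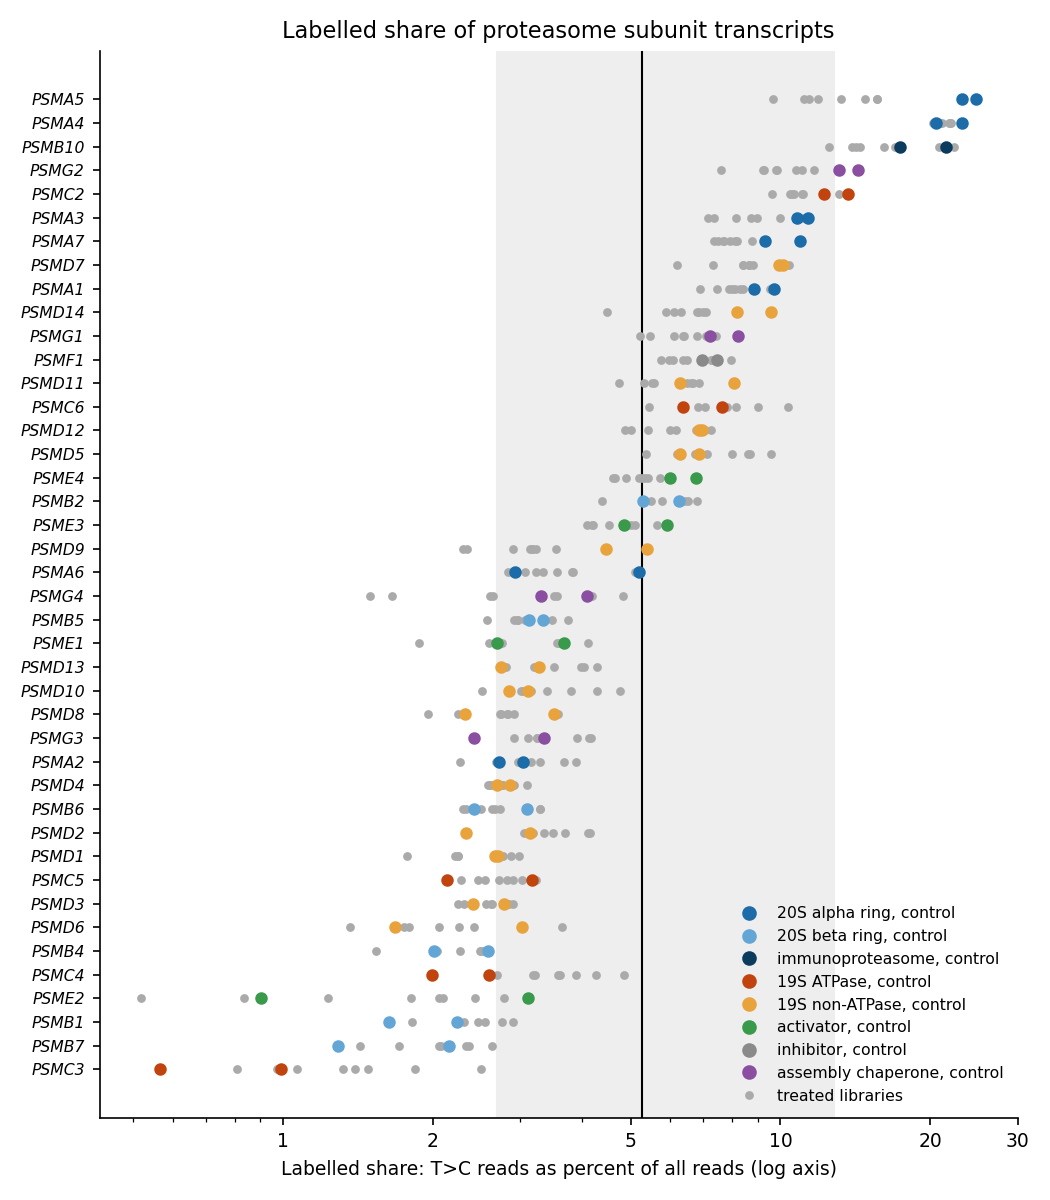
Labelled share of the 42 tested proteasome subunit genes, as T>C reads in percent of all reads on a log axis. Large coloured points are control libraries and small grey points treated ones, the grey band spans the 10th to 90th percentile of genes with 100 or more T>C reads (2.69 to 12.8% in control libraries) and the black line is their median of 5.27%. PSMA5 is the gene whose control points stand clear of all its treated points by the widest gap.

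Conversions themselves were counted within the annotated interval, so a T>C read can carry its conversion elsewhere or at a position left out. PSMA4 had 0.117 counted conversions per T>C read and PSME2 0.170, against a median of 1.06 over the 8683 genes, of which 0.357% were under 0.2. Per 1000 covered T positions PSMA4 had 1.46 ± 0.061 conversions in control cells (SD, n = 2), rank 25 of the 42 genes, although its labelled share ranked second. PSMB10 (22.9 ± 3.41) and PSMA5 (8.98 ± 0.22) ranked first and second on this scale, beside a median of 1.65 over the 42 genes. Over the 8683 genes the median was 2.36 and the 90th percentile 6.32. The PSMB10 interval of 58 bases holds only 9 T positions, so its rate rests on few positions.

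The genes that work with the proteasome were read from a list of 30: 11 partners and assembly factors, NFE2L1, NFE2L2, DDI2 and NGLY1 of the transcriptional response, and 15 ubiquitin and delivery genes. In total RNA, 8 of the 30 rose and 3 fell under THZ531, 9 rose and 2 fell under THZ531 with Endovion, 4 rose under Endovion, and none was called under SRPIN340 by edgeR, where 9 of the 30 had an unadjusted p under 0.05 beside 19.3% of all genes. These calls made up 36.7% of the list under THZ531, 36.7% under both drugs and 13.3% under Endovion, beside the 30.7%, 29.0% and 11.4% of all genes given above. NFE2L2, the antioxidant regulator, was at 13.7 and 7.03 CPM in control libraries, 31.3 and 30.3 under Endovion, 20.3 and 27.2 under THZ531 and 32.3 and 34.9 under both. Its log2 fold changes were 1.56 ± 0.26, 1.18 ± 0.26 and 1.69 ± 0.26 (edgeR adjusted p = 0.0045, 0.0048 and 0.000649). NFE2L1 was at 56.5 and 52.8 in control libraries and rose by 0.59 ± 0.12, 0.44 ± 0.12 and 0.58 ± 0.12 in the same order (edgeR adjusted p = 0.0087, 0.0141 and 0.0029). DDI2, the protease that cleaves NFE2L1, fell by 0.51 ± 0.14 under THZ531 and 0.43 ± 0.14 under both drugs (edgeR adjusted p = 0.0105 and 0.0267).

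Among delivery factors, the shuttle gene UBQLN2 rose under Endovion (0.77 ± 0.16), THZ531 (0.80 ± 0.16) and both (0.76 ± 0.16), and RAD23B rose under THZ531 (0.64 ± 0.12) and both (0.50 ± 0.12). SEM1, the smallest 19S subunit, which has no PSM symbol, rose by 0.55 ± 0.14 under THZ531 and 0.58 ± 0.14 under both. Of the 11 partners and assembly factors, total RNA rose for 2 and fell for 2 under THZ531, and rose for 3 and fell for 1 under both drugs. These were 36.4% of the 11 each time, beside 30.7% and 29.0% of all genes tested. IPO9, a partner with lower values, was at 331 and 368 CPM in control libraries and 270 and 243 under THZ531. ZFAND5, which activates the proteasome in muscle wasting, rose in total RNA under THZ531 (0.93 ± 0.19) and both drugs (1.15 ± 0.19), and in nascent RNA under THZ531 (1.10 ± 0.21, edgeR adjusted p = 0.000323) and both (1.28 ± 0.21, edgeR adjusted p = 1.9e-05). In nascent RNA the other calls among the 28 tested genes of the list were UBE3C, a proteasome-bound ubiquitin ligase, up under Endovion (1.0 ± 0.29) and both drugs (0.88 ± 0.29), USP14, up under THZ531 (0.52 ± 0.17), UFD1, which helps to extract proteins for degradation, down under both (-1.43 ± 0.42), and ZFAND5, higher with both drugs than with Endovion alone (0.78 ± 0.21, edgeR adjusted p = 0.0396). Nascent calls made up 3.57% of the 28 under Endovion, 7.14% under THZ531 and 10.7% under both drugs. The shares of all genes were 2.66%, 7.46% and 8.1%. For both drugs against Endovion they made up 3.57%, beside 1.31% of all genes. In the labelled share NFE2L2 fell under both drugs, from 18.2 and 22.2% in control libraries to 4.76 and 6.44% (-1.93 ± 0.39, edgeR adjusted p = 0.0068). It alone was called there, 3.57% of the 28 beside 1.02% of all genes.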

How the data were processed

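The members and gene lists were chosen with earlier results of these data known. Per the methods, SLAM-DUNK called conversions in 3′ end reads of 22RV1 libraries; the submitters' processing notes also name Bowtie2 2.3.4.1, SAMtools 1.6, DESeq2 1.38.2 and hg38. The authors deposited, per 3′ UTR interval and library, counts of all reads, of T>C reads, of T>C conversions and of the T bases that reads covered, all used here without change. The deposited conversion rate (a fraction) and the deposited depth-scaled read number (a score here) were not used. Masking of reference differences and read deduplication are not given in the sources used here, so errors cover the spread between libraries.

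Of 104653 intervals, 92826 matched GENCODE v44 genes, and the best-covered of overlapping intervals (57382) were summed over 31015 genes. T content matched hg38 in 57 of 57 intervals of the members. PSMA1, PSMA2 and PSMA6 share intervals with read-through loci. Counts were fitted over all 10 libraries with edgeR 4.0.16 (TMM, filterByExpr, robust quasi-likelihood, 5 residual degrees of freedom), separately for T>C reads and all reads, and jointly with a library block for the labelled share. CPM values are TMM-scaled. Calls needed an adjusted p under 0.05. Named were all called members, the catalytic, activator and inhibitor genes, and the 3 highest and lowest nascent values per comparison. Alternatives were DESeq2 1.42.0, other scaling, no filter, plain sums of intervals, two-group fits, a replicate block and leaving out each library. Scripts were tested on simulated data. Depth limits low genes: 8 T>C reads was the smallest control count of a tested member named here.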

Additional observations from a re-analysis of the deposited data

How the results depend on the processing

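No called gene changed direction under any alternative: of 460 recomputed values of the 29 calls, 341 kept the call and 119 lost it. Those 29 calls are of subunit genes only. For the listed genes that work with the proteasome, such as NFE2L2, no such check is given. Counts of called subunit genes that moved by over 1.5 times were as follows. Nascent RNA under THZ531 with Endovion (2 genes) gave 0 with plain sums of overlapping intervals, DESeq2, the two-group fit or scaling by all reads, and 1 without the filter or by the study's threshold, which also gave 1 under SRPIN340 and 1 under Endovion. Total RNA under SRPIN340 (1 gene) gave 4 with DESeq2, 4 without the filter, and 0 with plain sums, the two-group fit, the replicate block or the study's threshold. Under Endovion (5 genes) it gave 9 with DESeq2, 9 without the filter and 1 by the study's threshold. Under THZ531 (9 genes) it gave 5 in the two-group fit and 1 by the study's threshold, which also gave 1 under both drugs (9 genes). Against Endovion, the combination (0 genes) gave 1 without the filter and 1 in the two-group fit. The labelled share gave 1 gene without the filter under SRPIN340 and under THZ531, 0 with plain sums under Endovion (1 gene) and under both drugs (2 genes), and 1 under both drugs with no scaling between read classes. The cause was not tested. Apart from the study's threshold, the share of all genes called under each alternative is not given here. These counts therefore do not set the subunit genes apart from all genes.

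Leaving out 1 library moved the counts as follows: nascent RNA 0 to 2 under Endovion, 0 to 1 under THZ531 and 0 to 2 under both drugs; total RNA 0 to 6 under SRPIN340, 1 to 10 under Endovion, 3 to 9 under THZ531, 3 to 10 under both drugs and 0 to 1 for both against Endovion; labelled share 0 to 1 under SRPIN340, 0 to 1 under Endovion and 0 to 2 under both drugs. Without control replicate 1 the total RNA counts under SRPIN340 and Endovion were 6 and 10, and without control replicate 2 they were 0 and 1. The shares of all genes called in these refits are not given, so whether the subunit genes moved more than all genes cannot be read from the counts. The median log2 fold change over the genes ranged in nascent RNA from -0.11 to 0.061 under SRPIN340 and -0.16 to 0.10 under Endovion, and in total RNA from -0.17 to 0.020 under Endovion, -0.012 to 0.070 under THZ531, -0.080 to -0.010 for both drugs against THZ531 and 0.0047 to 0.18 for both against Endovion.

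With the replicate number as a block, nascent RNA under both drugs gave 2 genes up and 1 down. In total RNA the block ended the calls of PSMD14 under Endovion (adjusted p = 0.0544), PSMD9 under both drugs (0.0514) and PSMG3 under SRPIN340 (0.0677), and gave 4, 9 and 8 called genes under Endovion, THZ531 and both drugs. The shares of all genes called with this block are not given either. Deviations of same-numbered libraries correlated at -0.07 to 0.06 in nascent and -0.15 to 0.20 in total RNA, so the numbers were not taken as pairs.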

Other observations

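The 8 genes whose total RNA rose in any comparison had main 3′ intervals with a median of 1404 bases (209 to 3723), beside 306 bases (44 to 4226) in the 32 other tested genes and 213 bases (57 to 496) in the 4 that fell, and the range of the other genes held both of the rest. The genes themselves spanned a median of 34254 bases (7343 to 103293) where total RNA rose, 16586 bases (2359 to 138762) in the other tested genes and 4275 bases (2359 to 18688) where it fell, and the maximum number of exons in a transcript was 7.5, 10.5 and 6.0 at the median. These groups were formed after the values were seen, so the lengths are a description without a test.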
